A study of Mus musculus with 2 samples.

Results

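The genes described here are the aminoacyl-tRNA synthetases of the cytosol and of the mitochondria, with 2 scaffold proteins of the cytosolic multisynthetase complex. The set was given as a list of 39 gene symbols, and all 39 were found, 1 row each, among the 28592 genes of the table. It held 19 synthetase genes of the cytosol, 16 of the mitochondria, 2 whose products serve both compartments (Gars and Kars), and the scaffold genes Aimp1 and Aimp2. Farsa and Farsb encode the subunits of a single enzyme, and Eprs encodes an enzyme for 2 amino acids. The cells were E14TG2a, a mouse embryonic stem (ES) cell line, in the naive ground state under 2i/LIF culture. The 2i/LIF medium combines inhibitors of MEK and GSK3 with leukaemia inhibitory factor. The series has this 1 group, in 2 replicates and with no treatment or control group, so no test between conditions was possible. Nothing in the labels states that the replicates came from separate cultures, and their spread may be technical.

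Aminoacyl-tRNA synthetases join each amino acid to its matching transfer RNA, the step that sets the reading of the genetic code. They fall into 2 structural classes, I and II, with unrelated catalytic folds. In animals the cytosol and the mitochondria mostly use separate nuclear genes for the same amino acid, and the products of the mitochondrial genes are imported. In the cytosol several synthetases are held together by scaffold proteins in the multisynthetase complex, while the others are free. Rapidly dividing cells such as ES cells need a steady supply of charged tRNA for protein synthesis.

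Levels are in FPKM, fragments counted per kilobase of transcript and scaled by library size, so that levels can be set side by side between genes. Detection means 1 FPKM or more in both replicates. Genes are said to overlap where the ranges of their 2 replicate values touch. Any error in the FPKM of a gene that both replicates share is not seen in such a comparison. The number of reads behind the values is not known, and the table summed to 946498 FPKM in replicate 1 and 928174 in replicate 2. The labelled cell type was checked on marker genes. All 9 ES cell markers were detected, from 12.5 for Klf4 to 7048 for Dppa5a (mean of the replicates). None of 6 fibroblast and none of 8 differentiation markers was, with highest means of 0.464 (Col1a2) and 0.158 (Sox17). The fibroblast markers summed to 0.569 FPKM in replicate 1 and 2.76 in replicate 2. Most of replicate 2 came from 3 collagen genes: Col1a2 (0.0101 and 0.917 in replicates 1 and 2), Col3a1 (0.0481 and 0.809) and Col1a1 (0.0136 and 0.552). Of the 6 markers 5 were higher in replicate 2, and Pdgfra was lower. The part of this difference in the values below was not tested. In bulk RNA a lower level in every cell and a lower share of expressing cells cannot be told apart.

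All 39 members were detected, against 39.4% of all genes in the table. Their median FPKM was 55.4 ± 0.461 (SD of the replicate medians, n = 2), and the median of all detected genes was 12.7. Together they made up 0.311% of the summed FPKM in replicate 1 and 0.314% in replicate 2. The order of the members followed the compartment they serve. The 19 cytosolic synthetase genes had a median of 104.3 ± 0.361, and the 16 mitochondrial ones a median of 15.4, with medians of 15.2 in each replicate alone. Of the 21 synthetase genes of the cytosol or both compartments, 18 lay in both replicates above 37.2, the highest value of any mitochondrial gene. The exceptions were Vars, Wars and Tarsl2.

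**Figure D1:**
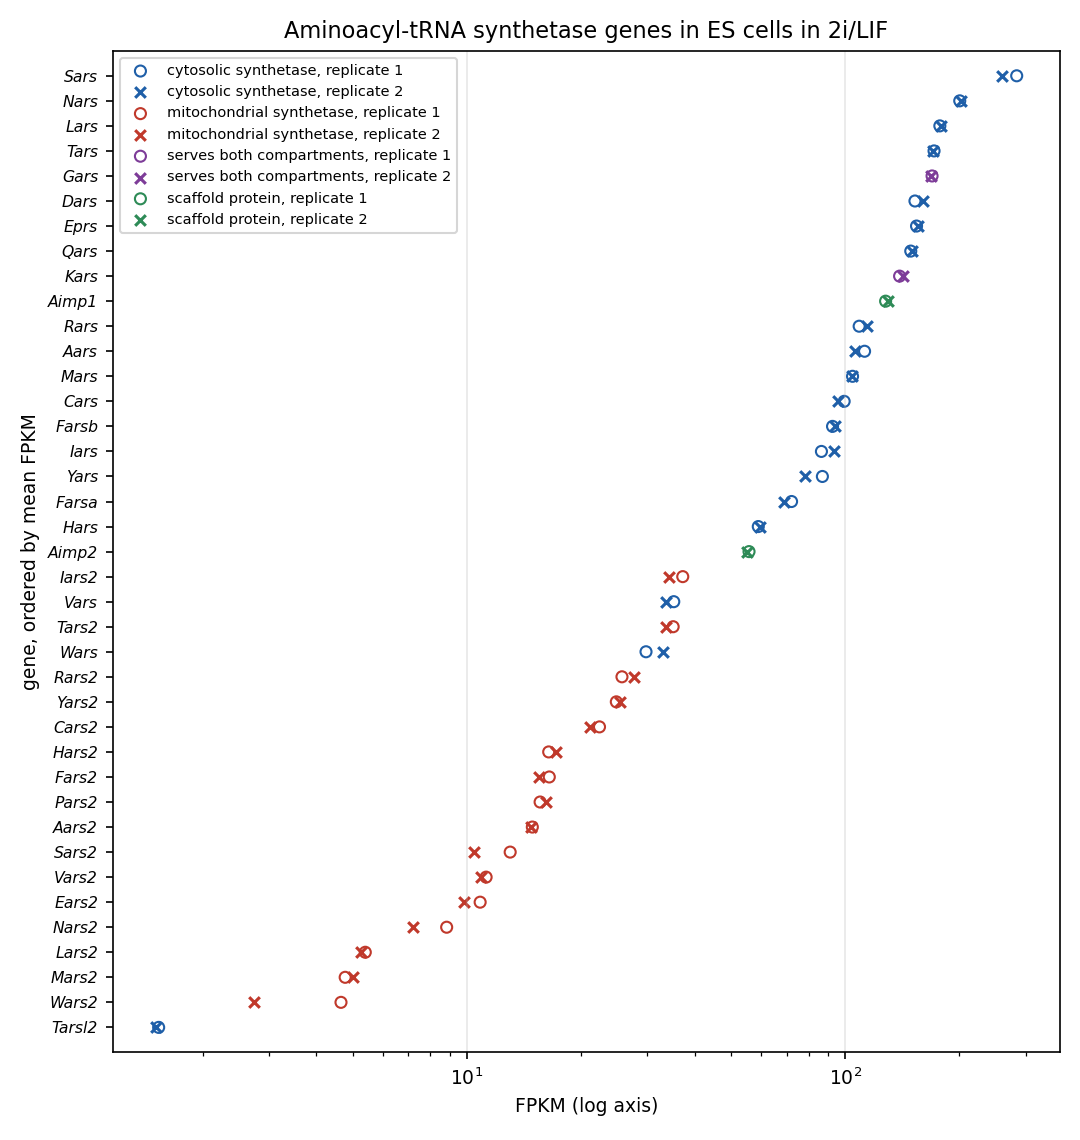
FPKM of the 39 genes in replicate 1 (open circles) and replicate 2 (crosses), on a log axis, ordered by mean and coloured by compartment. The mitochondrial genes fill the lower part, from 35.7 for Iars2 to 3.69 for Wars2, and the cytosolic gene Tarsl2 is lowest at 1.52.

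Sars, the seryl-tRNA synthetase, was the most abundant member. It stood at 284 in replicate 1 and 261 in replicate 2 (ENSMUSG00000068739.12, chromosome 3, 108424864 to 108445259). Both values were above those of every other member. Nars, which charges asparagine, followed at 201 and 203. Lars, which charges leucine, had 178 and 179, and Tars, the main threonine enzyme, 172 and 171. Gars, the glycine enzyme, has no separate mitochondrial gene, and it stood at 169.7 and 168.7. Kars, the lysine enzyme of both compartments, had 139 and 142. The level of Gars was 1.20 times that of Kars, and their values did not overlap.

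A middle range of cytosolic genes ran from Dars down to Cars. Dars, for aspartate, had 153 and 161 in replicates 1 and 2. Eprs, which joins glutamate and proline to their tRNAs with separate catalytic parts of a single chain, had 154 and 156. Those 2 genes overlapped. Qars, for glutamine, had 149.1 and 150.5. Rars, for arginine, stood at 109 and 114. Aars, for alanine, had 113 and 106, which overlapped Rars. Mars, the methionine enzyme needed for every start codon as well as for internal methionines, had 105 and 104. Cars, for cysteine, followed at 99.4 and 95.5.

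The next cytosolic genes fell below Cars. Farsb encodes the beta subunit of the phenylalanine enzyme, with 92.6 and 94.0. Farsa, the alpha subunit, had 72.1 and 68.8. The enzyme is built from equal numbers of both subunits, and the RNA of Farsb was 1.28 times that of Farsa in replicate 1 and 1.37 times in replicate 2. Iars, for isoleucine, stood at 86.5 and 93.4, and Yars, for tyrosine, at 87.0 and 78.5. Iars overlapped both Farsb above it and Yars below it. Hars, for histidine, had 58.9 and 59.4.

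The lowest cytosolic synthetases were those for valine and tryptophan, and Tarsl2. Vars had 35.2 and 33.6. Wars, whose product is also known as an interferon-induced protein, had 29.7 and 32.9. Sars was 8.70 times as high as Wars. Both Vars and Wars lay within the upper range of the mitochondrial genes. Tarsl2, a paralog of Tars for the same amino acid, stood at 1.530 and 1.504 (chromosome 7, 65644898 to 65692093), above the detection limit of 1. Tars was 112 and 114 times as high as Tarsl2 in replicates 1 and 2, and Tars2, the mitochondrial threonine gene, 22.9 and 22.3 times as high. Among the 20 neighbouring steps in the order of these 21 genes, 16 had replicate values that did not overlap.

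The mitochondrial synthetases spanned 9.66-fold between their highest and lowest means. Iars2, for isoleucine, was highest with 37.2 and 34.1, and Tars2 followed with 35.1 and 33.5. These 2 genes overlapped. Rars2, for arginine, had 25.7 and 27.7. Yars2, for tyrosine, had 24.8 and 25.4, and Cars2, for cysteine, 22.4 and 21.1. From Rars2 to Cars2 no neighbouring genes overlapped.

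A second set of mitochondrial genes stood near the mitochondrial median of 15.4. Hars2, for histidine, had 16.4 and 17.2, and Fars2, a single-chain enzyme for phenylalanine unlike its cytosolic counterpart, 16.5 and 15.5. Pars2, for proline, had 15.6 and 16.1. Fars2 overlapped both of these. Aars2, for alanine, followed at 14.9 and 14.8.

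The other 7 mitochondrial genes were lower still. Sars2, for serine, had 13.0 and 10.4, Vars2, for valine, 11.2 and 10.9, and Ears2, for glutamate, 10.8 and 9.81. Sars2 overlapped Vars2, and Vars2 and Ears2 did not overlap. Nars2, for asparagine, had 8.84 and 7.19. Lars2, for leucine, stood at 5.38 and 5.25, and Mars2, for methionine, at 4.76 and 5.0. Wars2, for tryptophan, was the lowest mitochondrial gene at 4.64 and 2.74 (ENSMUSG00000004233.13, chromosome 3, 99140107 to 99221230). Among 15 neighbouring steps in this order 11 did not overlap.

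For tryptophan and valine the genes of both compartments were among the lower ones of their group, while for leucine, asparagine, serine and methionine the compartments lay far apart. For each amino acid with a cytosolic and a mitochondrial gene in the set, the ratio of the FPKM values was taken within each replicate, without a pseudocount, over 17 gene pairs. In all 17 both replicates of the cytosolic gene lay above both replicates of the mitochondrial gene. The median log2 ratio was 2.54 ± 0.0787 (SD of the replicate medians, n = 2), which is 5.83-fold. The pairs share genes, since Eprs was set against both Ears2 and Pars2, and Farsa and Farsb both against Fars2.

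The leucine pair had the widest gap, with Lars 33.0 and 34.2 times as high as Lars2 in replicates 1 and 2. Nars was 22.7 and 28.2 times as high as Nars2, and Sars 21.8 and 25.01 times as high as Sars2. Mars was 21.95 and 20.8 times as high as Mars2. These 4 pairs were past 16-fold, and their cytosolic genes were not all among the highest, since Mars was the gene at the cytosolic median while Mars2 was among the lowest mitochondrial genes. Eprs was 15.1 times as high as Ears2 and 9.79 times as high as Pars2 (geometric means of the replicates).

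At the other end the isoleucine pair was closest, with Iars 2.33 and 2.74 times as high as Iars2. The valine pair differed 3.13-fold and 3.08-fold. For tyrosine the ratio was 3.51 and 3.09, and for histidine 3.58 and 3.46. These were the 4 pairs under 4-fold. Between the extremes were the pairs for arginine (4.18-fold), cysteine (4.48), threonine (4.99), alanine (7.37) and phenylalanine (4.402 from Farsa and 5.83 from Farsb). The tryptophan ratio was the least certain, 6.40 in replicate 1 and 12.0 in replicate 2.

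**Figure D2:**
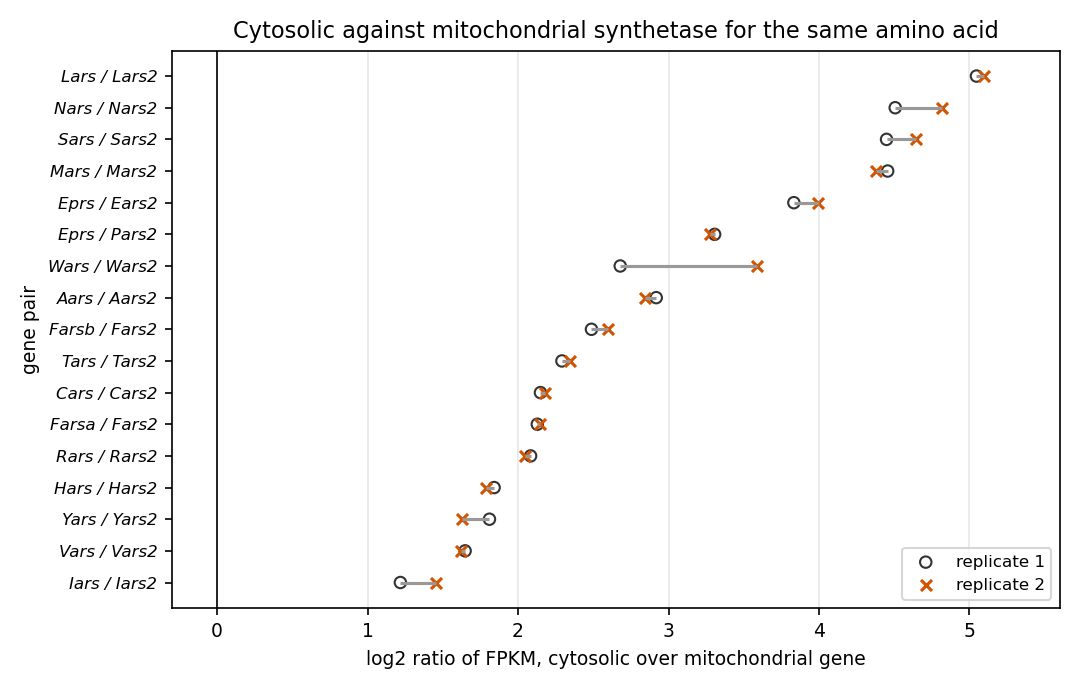
log2 ratio of the FPKM of the cytosolic gene to that of the mitochondrial gene for the same amino acid, 1 row per pair, in replicate 1 (circles) and replicate 2 (crosses). All 17 pairs lie to the right of 0, from 1.34 for Iars and Iars2 to 5.07 for Lars and Lars2 (means of the replicates), and the pair of Wars and Wars2 has the longest bar between replicates.

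Synthetases of the multisynthetase complex lay in a narrow band. The 8 synthetase genes of the complex (Dars, Eprs, Iars, Kars, Lars, Mars, Qars and Rars) ranged from 90.0 to 179 in mean FPKM, a 1.99-fold span. Their median was 145 ± 1.47 (SD of the replicate medians, n = 2). The 13 other synthetase genes of the cytosol or both compartments ranged from 1.52 to 272, with a median of 93.3 ± 1.03. The low end of that range was Tarsl2 alone, and the next lowest gene was Wars at 31.3. Aimp1, the scaffold protein that also yields a secreted cytokine, had 128 and 129.8. Aimp2, the scaffold on which the complex is built, had 55.7 and 55.0, below all 8 synthetases of the complex. Aimp1 was 2.30 and 2.36 times as high as Aimp2 in replicates 1 and 2. The remaining scaffold gene, Eef1e1, stood at 134 and 138. It is not a member of the set.

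Within the cytosol the classes overlapped over most of their range. The 9 genes of class I had a median of 97.4 ± 2.75 and ranged from 31.3 (Wars) to 179 (Lars). The 11 genes of class II had a median of 141 ± 1.93 and ranged from 1.52 (Tarsl2) to 272 (Sars). Eprs, which has a part of each class, was left out of this count. In the mitochondria the 9 class I genes had a median of 11.1 ± 0.234 and the 7 class II genes a median of 15.9, with 15.6 and 15.5 in the replicates alone. The lowest 3 mitochondrial genes, Lars2, Mars2 and Wars2, were all of class I. So were all but Tars2 of the 5 with a mean of 20 or more (Iars2, Rars2, Yars2 and Cars2), so class I held both ends of the range.

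The replicates were close for nearly all members. Only Wars2 was more than 25% apart between replicates (1 of 39, 2.56%), against 8.36% of all detected genes. Its log2 ratio of replicate 2 to replicate 1 was -0.76. Sars2, at a log2 ratio of -0.32, and Nars2, at -0.30, lay just inside that limit, and both were lower in replicate 2. The median absolute log2 ratio was 0.06 over the members and 0.09 over all detected genes. Of the members, 31 lay above the median level of detected genes, and detected genes above that median had a median absolute log2 ratio of 0.07, against 0.13 for the others. Within the set the median absolute log2 ratio was 0.08 for the 16 mitochondrial genes. It was 0.03 for the 21 synthetase genes of the cytosol or both compartments, but 0.06 for the 19 cytosolic genes alone. The size of the gap therefore depends on the grouping. In replicate 2, 17 of 39 members (43.6%) were higher, against 48.8% of all detected genes. With both columns rescaled to the same total, 23 of 39 members and 57.4% of detected genes were higher in replicate 2, so the majority depends on the scaling. By compartment, as deposited, 5 of 16 mitochondrial genes, 11 of 21 synthetase genes of the cytosol or both compartments and 1 of 2 scaffold genes were higher there. So were 8 of the 10 genes of the multisynthetase complex.

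**Figure D3:**
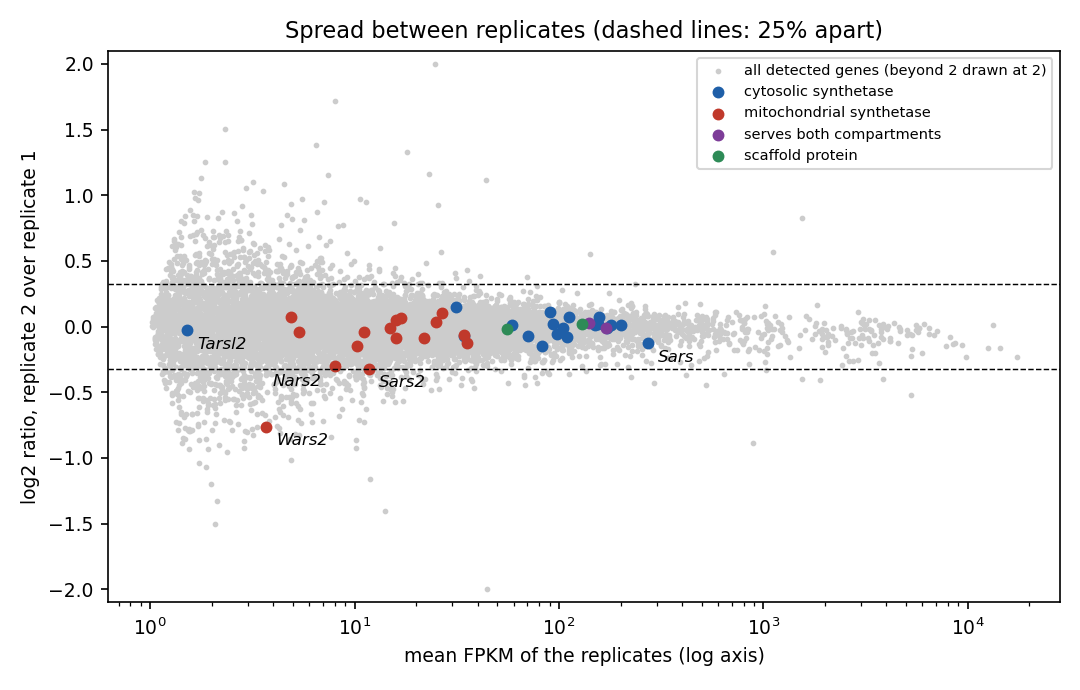
log2 ratio of replicate 2 to replicate 1 against mean FPKM (log axis) for all detected genes (grey) and the members (coloured by compartment), with dashed lines at 25% apart. Wars2, at -0.76, is the only member outside the lines, and Sars2 and Nars2 lie just inside them.

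The promoters of the genes were examined for short sequences shared beyond the list itself. RefSeq promoter sequences on GRCm38.p6, from 250 bases before to 50 after an annotated start, were matched for 30 of the 39 members. Cars, Hars, Hars2, Lars, Nars, Pars2, Rars, Vars and Wars had no entry. A gene with several starts was counted if any of its promoters held the motif. Each motif was searched on both strands, and no 2 motifs overlapped in a member. The C/EBP-ATF response element was searched as TGATGNAA. It is bound by the transcription factor ATF4, which is made when amino acids run short and for which many cytosolic synthetase genes are known targets. It was found in 5 of 14 promoter-matched synthetase genes of the cytosol or both compartments (Aars, Gars, Iars, Tars and Yars) and in 0 of 14 mitochondrial genes and 0 of 2 scaffold genes. Of all 27025 genes with a promoter 4.51% held it, and of the 8791 detected ones 2.56%. The choice of motifs was made with earlier results of these data known, and the counts are small and were not tested.

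A match in each of these 5 genes is shown, because they belong to the cytosol or both compartments. Each line runs 5′ to 3′ on the strand of the gene, with the motif in capitals and 10 flanking bases on each side. In Aars, Gars, Iars and Tars the motif is on the opposite strand and therefore reads as its reverse complement.
Tars (chr15:11399656-11399683, minus strand): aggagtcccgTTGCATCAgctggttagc
Gars (chr6:55037961-55037988, plus strand): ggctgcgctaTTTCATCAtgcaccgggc
Aars (chr8:111033841-111033868, plus strand): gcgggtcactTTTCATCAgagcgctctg
Iars (chr13:49682127-49682154, plus strand): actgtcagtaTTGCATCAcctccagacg
Yars (chr4:129189896-129189923, plus strand): cgagctcagcTGATGCAAcccgacggga

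All of the matches shown began within 30 bases of the annotated start. Tars and Gars had it at 15 and 30 bases before the start. Iars, Yars and Aars had the motifs shown at transcribed positions 8, 4 and 10. The Aars and Yars promoters in the table belong to starts inside the RefSeq spans of the genes, for Aars on chromosome 8 from 111027778 to 111055569. The 5 genes with the motif ranged from 82.8 (Yars) to 171 (Tars) in mean FPKM. Several genes without it were as high, such as Sars, Dars, Eprs and Qars. No match says only that these letters are not in the window searched.

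The other 3 motifs were searched in the same way. The core of the binding site of NRF1, a factor known for nuclear genes of mitochondrial proteins, was searched as GCATGCGC. It was in 3 of 14 mitochondrial promoters (Rars2, Vars2 and Wars2) and in 0 of 14 of the cytosol or both compartments, against 3.05% of all genes with a promoter and 6.69% of the detected ones. These 4 matches, with 2 in Vars2, are given in the same form.
Rars2 (chr4:34614896-34614923, plus strand): ggccccgtgtGCATGCGCactccacact
Vars2, upstream match (chr17:35667621-35667648, minus strand): agtcttttacGCATGCGCctgcgtgtcc
Vars2, downstream match (chr17:35667595-35667622, minus strand): ccccgcccacGCATGCGCgcgcacctcg
Wars2 (chr3:99141016-99141043, plus strand): cagaggacagGCGCATGCgtagtaagca

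The motifs lay 51 bases before the start in Rars2, 46 and 20 in Vars2 and 64 in Wars2, and in Wars2 on the opposite strand. The starts of Vars2 and Wars2 were inside the RefSeq spans too. The 3 genes with this core stood at 26.7 (Rars2), 11.1 (Vars2) and 3.69 (Wars2), so they covered most of the mitochondrial range. The E-box CACGTG, the site of MYC and related factors, was in 4 of 14 promoters of the cytosol or both (Aars, Farsb, Iars and Tars) and in 1 of 14 mitochondrial ones (Ears2), against 8.09% of all genes and 12.4% of detected ones. Its spread by compartment was in the same direction as that of the C/EBP-ATF response element, and Aars, Iars and Tars held both. The ETS site CCGGAAGT was in Farsa, Mars, Rars2 and Aimp1, 4 of 30 members, against 4.31% and 10.3%. For CpG counts the highest promoter of each gene was taken. The median over genes was 16.5 for the 14 genes of the cytosol or both and 19 for the 14 mitochondrial genes, against 22 for detected genes. The 8791 detected genes had 11179 promoters, and the 14 genes of the cytosol or both had 14, so the groups differ in promoters per gene.

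Several members lie back to back with another gene. Starts here are the outer ends of the RefSeq spans, which differ from the promoter starts above for some members, such as Yars. A measured neighbour on the other strand with its start within 1000 bases was found for 9 of the 30 members with a known strand. The share over all genes was not computed, so the count does not set these members apart from other genes. Ears2 and Ubfd1 start 1 base apart, and the values were 10.3 ± 0.728 and 41.3 ± 0.0911 (mean ± SD, n = 2). Kars and Terf2ip, a telomere protein gene, start 5 bases apart and had 141 ± 1.93 and 5.29 ± 0.224. Rars2 and Orc3, a subunit gene of the origin recognition complex, start 6 bases apart, with 26.7 ± 1.39 and 68.0 ± 0.751. Iars2 and Bpnt1 start 9 bases apart, with 35.7 ± 2.17 and 67.5 ± 3.76. Genes that start so close had clearly separate levels in each of these pairs.

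The other divergent pairs had the same form. Aimp2 stood at 55.4 ± 0.461 and its neighbour Pms2, a mismatch repair gene, at 20.5 ± 2.57. Yars had 82.8 ± 6.05 and S100pbp 21.6 ± 0.746. Fars2 had 16.01 ± 0.696 and Lyrm4, a gene of iron-sulphur cluster assembly, 8.20 ± 0.622. Sars2 had 11.7 ± 1.83 and Mrps12, a mitochondrial ribosomal protein gene, 41.7 ± 2.71, with starts 136 bases apart. Aimp1 had 129 ± 1.34 and Tbck 4.08 ± 0.146. The member was the higher gene in 5 of the 9 pairs.

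Overlap of gene spans makes some levels less certain, because the sources used here do not say whether strand was used in counting. Spans of 10 members overlapped that of another measured gene in RefSeq, and the share over all genes was not computed. The longest overlaps were those of Aars with Ddx19b (3974 bases) and Farsb with Sgpp2 (2332 bases). The start of the Aars promoter searched above lies past the end of the Ddx19b span. Ddx19b stood at 20.9 ± 0.641 and Sgpp2 at 0.260 ± 0.0487, both lower than the member. The spans of Hars and Hars2, both on chromosome 18, overlapped by 4 bases, and the 3′ end of Mars overlapped Ddit3 by 71 bases.

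Genes that work directly with the synthetases were measured too, and 14 of 14 charging partners were detected. Eef1a1, which carries charged tRNA to the cytosolic ribosome, stood at 13279 and 13419. Tufm, its mitochondrial counterpart, had 59.7 and 60.5, and Tsfm, the nucleotide exchange factor of Tufm, 61.2 and 57.8. The gap between Eef1a1 and Tufm was in the same direction as that between the compartments of the synthetases. Mitochondria make glutaminyl-tRNA indirectly, by converting mischarged glutamyl-tRNA with an amidotransferase. Its subunit genes Qrsl1 and Gatb had 16.2 and 16.2, and 15.3 and 16.2, in replicates 1 and 2. Gatc, the small subunit, had 2.04 and 1.93. Mtfmt, which formylates the initiator methionyl-tRNA of mitochondria, had 5.30 and 5.36, close to Mars2. Tufm and Tsfm were above all 16 mitochondrial synthetases.

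Genes that make and export tRNA had a median of 33.0 ± 0.835 (SD of the replicate medians, n = 2), and 16 of 17 were detected. The highest were Ssb, the La protein that binds new tRNA transcripts, at 226 ± 15.98, the tRNA ligase gene Rtcb at 172 ± 5.12 and the splicing endonuclease subunit Tsen34 at 159 ± 17.8. Rpp38, a subunit of RNase P, had 12.6 ± 0.975, and Elac1, the cytosolic counterpart of the tRNA 3′ end nuclease, 0.876 ± 0.0908. The 78 mitochondrial ribosomal protein genes had a median of 53.8 ± 0.964 and ranged from 10.6 to 255. That median exceeds the highest mitochondrial synthetase, Iars2 at 35.7. Genes are not replicates, so these lists were set side by side with no test.

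**Figure D4:**
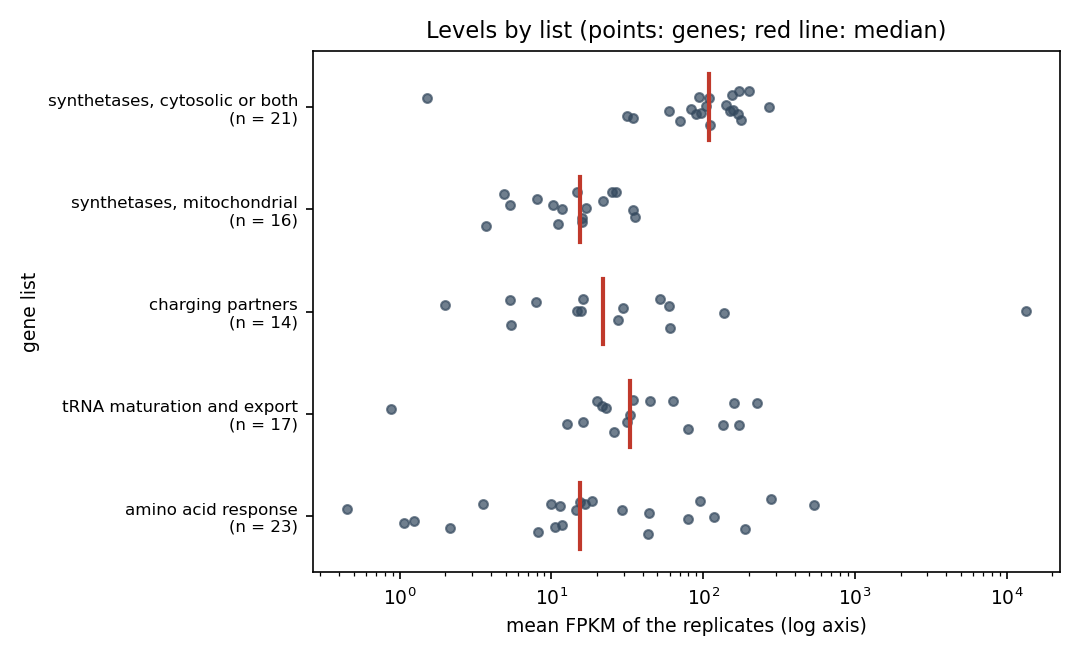
Mean FPKM (log axis) of each gene in 5 lists, with a red line at the list median, for the synthetases of the cytosol or both compartments (n = 21), the mitochondrial synthetases (n = 16), charging partners (n = 14), tRNA maturation and export (n = 17) and the amino acid response (n = 23). The medians are 109, 15.4, 21.8, 33.0 and 15.3 in that order.

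The amino acid response is the pathway in which the kinase GCN2 (gene Eif2ak4) senses uncharged tRNA and raises translation of Atf4, the factor named above. Eif2ak4 had 8.39 and 7.92 in replicates 1 and 2. Atf4 RNA stood at 187 and 189, which says nothing of its protein. Of the 23 measured genes of this list 20 were detected, with a median of 15.3 ± 0.308. The highest were Asns, the asparagine synthetase, at 534 ± 16.3, and the serine synthesis gene Psat1 at 279 ± 4.28, followed by Atf4. Vldlr had 1.07 ± 0.126 and the cystine transporter gene Slc7a11 0.448 ± 0.128, the lowest of the list. The stress-induced members Trib3, Chac1 and Atf3 stood at 9.95 ± 0.442, 3.53 ± 0.400 and 1.246 ± 0.730. Ddit3, the neighbour of Mars, had 16.3 and 20.5. In this list 3 of 23 genes (Ddit3, Atf3 and Slc7a11) were more than 25% apart between replicates, against 8.36% of all detected genes. Atf3 and Slc7a11 did not pass the detection limit, and Ddit3, at a log2 ratio of 0.326, was just outside the 25% limit.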

How the data were processed

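RNA of 2 replicates was extracted with TRIzol, depleted of ribosomal RNA and made into stranded total RNA libraries for an Illumina HiSeq instrument, per the labels' protocols. The authors deposited FPKM per gene and replicate, made with CASAVA, TopHat2 and Cufflinks on mm10 and GRCm38, per the submitters' processing notes. The annotation release, the versions and any use of strand were not given in the sources used here. FPKM values carry no read depth, so no counting interval was computed, and their precision is known only from the replicates. Columns were matched to replicates by the sample descriptions.

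Symbols were matched by stable identifier (28256 of 28592 genes), and gene spans and promoters are from RefSeq on GRCm38.p6 (38 of 39 members by symbol, Mars by synonym). Of 78 names in the other lists 77 were measured, without Gcn1. Every member is named, and of each list the 3 highest, the 2 lowest and those acting directly on a member. Of these, 1 list gene and 1 promoter match are not reported here. Other names were chosen after their values were seen. The members, lists and motifs were chosen with earlier results of these data known. Python 3.11.15 and pandas 2.3.3 were used. The fold calculation was tested on simulated data. Alternatives covered detection limits, pseudocounts, rescaling to TPM, centring and leaving out each replicate.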

Additional observations from a re-analysis of the deposited data

How the results depend on the processing

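With 1 group of 2 replicates no test was run, and the settings concern levels, ratios and counts. At detection limits of 0.1, 0.5, 5 and 10 FPKM the number of members detected was 39, 39, 36 and 33. Rescaling to TPM raised the cytosolic median from 104.3 to 111 and the mitochondrial one from 15.4 to 16.4. The mitochondrial median was 15.16 to 15.25 when a replicate was left out, below the 15.4 from gene means. Members further apart between replicates than 1.1-fold numbered 6 (against 33.5% of detected genes), and 1 at 1.5-fold. The median log2 ratio of the pairs was 2.47 and 2.54 with pseudocounts of 1 and 0.1. The 51 values of single pairs under a pseudocount of 1 or in a single replicate ranged from 1.22 to 5.10. Their sign could not change, because all 17 pairs were separated in both replicates and a pseudocount keeps the sign. Centring the replicates gave 21 of 39 members higher in replicate 2. No paired analysis was possible because the series has 1 group. Depth in reads is unknown, so the precision of the lowest members, Wars2 and Tarsl2, rests on 2 values each.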
